A study of Rattus norvegicus with 8 samples.

Results

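Across the 20 autosomes of the rat, 809 of 95276 tiles of 1 kb had more CpG methylation in hippocampus than in hypothalamus under a fixed rule (0.849%). A CpG dyad, the C on one strand plus the C opposite the G on the other, was used where it had at least 10 calls in each of 8 libraries, and a tile needed at least 3 such dyads. The level of a tile was its methylated calls over all its calls. A tile became a member where the mean of the hippocampus levels was at least 10 percentage points above the mean of the hypothalamus levels and all 4 hippocampus levels lay above all 4 hypothalamus levels. The same rule turned round gave 7324 tiles higher in hypothalamus (7.69%). The members were thus chosen by the CpG levels of all 8 libraries, so these levels and their differences are given as a description, with no test.

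The libraries came from reduced representation bisulfite sequencing (RRBS), in which genomic DNA is cut with MspI at CCGG, short fragments are kept, and bisulfite converts unmethylated cytosine so that it is read as T. All 8 libraries were from male Sprague Dawley rats, an outbred strain, aged 2 months when feeding with DHA began, an omega-3 fatty acid whose full name is docosahexaenoic acid, and the diet lasted 6 weeks. There were 4 libraries of hippocampus and 4 of hypothalamus, all DHA-fed. The treatment note for the series also names fructose, which the labels of these samples do not, and the study's chow group was not analysed here. Both tissues were dissected whole, so a change in the level per cell and a change in the mix of cell types cannot be told apart. RNA was not measured in these libraries, and the tissue labels were not checked against expressed markers.

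Methylation of the C in CpG is the common form of DNA methylation in mammals. Most CpGs of the genome are methylated, while CpG-dense stretches at gene starts, called CpG islands, usually are not. Differences between tissues are often found at CpGs outside such islands, many of them in enhancers and at island edges. Neurons also carry methylation outside CpG, above all where the C is followed by A, which is placed after birth and is scarce in most other cells.

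The sequences below show where the difference lay at 3 gene starts and in 2 of the tiles that differed most. The first 3 are RefSeq promoters (assembly GRCr8, 250 bases before to 50 after the gene start, 5′ to 3′ in the direction of the gene). They were located in the deposited coordinates, of build rn5, by the order of their cytosines, since no rn5 genome or annotation was used. The genes are Klb (chr14:44427977-44428276, minus strand), the FGF21 co-receptor beta-klotho; Tmem144 (chr2:198027655-198027954, minus strand), a transmembrane protein; and Galr3 (chr7:120263867-120264166, plus strand), a receptor for the neuropeptide galanin. Capitals mark the CpGs measured in all 8 libraries.
Klb: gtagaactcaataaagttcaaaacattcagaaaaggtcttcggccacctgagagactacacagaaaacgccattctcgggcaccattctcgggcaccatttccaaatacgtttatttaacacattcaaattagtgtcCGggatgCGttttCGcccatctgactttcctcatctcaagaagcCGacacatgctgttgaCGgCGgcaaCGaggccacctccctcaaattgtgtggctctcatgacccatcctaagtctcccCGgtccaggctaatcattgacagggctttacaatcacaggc
Tmem144: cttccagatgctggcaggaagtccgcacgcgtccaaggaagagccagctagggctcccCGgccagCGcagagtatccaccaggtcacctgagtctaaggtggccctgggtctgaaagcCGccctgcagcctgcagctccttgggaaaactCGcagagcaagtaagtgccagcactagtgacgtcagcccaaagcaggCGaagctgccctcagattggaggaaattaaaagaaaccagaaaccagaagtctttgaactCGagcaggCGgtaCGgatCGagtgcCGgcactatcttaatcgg
Galr3: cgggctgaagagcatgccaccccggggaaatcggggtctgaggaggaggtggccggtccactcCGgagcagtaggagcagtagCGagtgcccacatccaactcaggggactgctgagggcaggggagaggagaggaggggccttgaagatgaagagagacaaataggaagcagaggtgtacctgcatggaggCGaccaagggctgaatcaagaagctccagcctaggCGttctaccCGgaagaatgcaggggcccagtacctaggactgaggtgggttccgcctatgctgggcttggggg
The other 2 runs were rebuilt from the cytosines listed in the deposited tables, read on the forward strand of rn5. The letter n stands for a base that the listing does not fix (102 of 174 bases were fixed in the run on chromosome 2 and 91 of 151 in the run on chromosome 3). Capitals again mark the measured CpGs, 8 in each run.
chr2:251302222-251302395: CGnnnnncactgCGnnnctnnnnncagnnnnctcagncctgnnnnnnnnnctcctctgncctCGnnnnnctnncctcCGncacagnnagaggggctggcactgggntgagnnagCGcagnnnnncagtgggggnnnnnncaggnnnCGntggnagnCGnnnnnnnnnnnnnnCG
chr3:102318305-102318455: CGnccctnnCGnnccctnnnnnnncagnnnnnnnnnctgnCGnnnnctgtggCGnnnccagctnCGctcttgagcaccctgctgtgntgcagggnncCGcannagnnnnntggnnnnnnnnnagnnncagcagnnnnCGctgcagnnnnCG

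All 8 measured CpGs of the Klb sequence were higher in hippocampus, by 13.6 to 24.3 points. They spanned the gene start, from 113 bases before it to 9 after. At the CpG 44 bases before the start the hippocampus libraries had 61.0%, 59.2%, 52.1% and 58.4% and the hypothalamus libraries 35.8%, 37.1%, 33.3% and 46.4%, on 30 to 118 calls. In the Tmem144 sequence the 10 measured CpGs were low in both tissues and higher in hippocampus by 8.73 to 17.95 points. Of the 5 measured CpGs of Galr3, the farthest from the start differed by 0.588 points (8.06% against 7.47%) and the others by 9.13 to 15.3 points. The CpGs 187 and 167 bases before the start (0.588 and 10.2 points) lay outside the member tile, chr7:120264001-120265000. The letters CCGG, the MspI site, occur 2 times in the Klb sequence, 2 times in Tmem144 and 4 times in Galr3, and at least 1 time in 51.4% of all 33469 RefSeq promoters of this length; the motif reads the same on both strands.

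Depth and library identity bear on all values that follow. The median number of calls per member tile was 316 to 374 in the hippocampus libraries, while hypothalamus 1 and 2 had 303 and 317 and hypothalamus 3 and 4 had 121 and 170, with 30 to 3718 calls in any 1 tile and library. Calls at neighbouring dyads come from the same reads and the handling of duplicate reads is not given in the sources used here, so intervals cover counting error only. The labels number the replicates but name no animals, so the spread between libraries may be in part technical. At 340 dyads with low, middle or high levels like those of a genotype, the 2 libraries numbered 1 had the same class at 98.8% and the 2 numbered 4 at 98.2%, while among the remaining 26 pairs the share was 23.2% to 39.1%. Libraries of 1 animal would agree as those numbered 1 and those numbered 4 did, but the labels do not say so. The pairs numbered 2 and 3, at 39.1% and 24.7%, were among the 26 that did not. Differences are therefore also given for replicates 1 and 4 and for replicates 2 and 3. Of these 340 dyads, 3 lay in member tiles, which held 4857 of the 761556 autosomal dyads with at least 10 calls in all 8 libraries.

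The member tiles were moderately to highly methylated in both tissues. Their median level was 73.0% in hippocampus (10th to 90th percentile 40.9% to 89.7%) and 57.5% in hypothalamus (25% to 76.7%). Among all tiles the medians were 77.3% and 80.2%, and 20.3% of all tiles had a hippocampus mean under 20%. Only 8 members (0.989%) were that low in hippocampus, and 272 (33.6%) had a hippocampus mean above 80%. In hypothalamus 57 members lay under 20%, and 23 of these under 10%. A low hypothalamus level paired with a middle hippocampus level was thus the minority form, and the usual member was a tile methylated in both tissues and less so in hypothalamus.

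Pooled over the members, the CpG level was 65.6%, 65.2%, 64.8% and 66.8% in hippocampus 1 to 4. The hypothalamus libraries had 51.8%, 47.5%, 48.8% and 52.7%. Over all tiles the corresponding levels were 44.3% to 46.0% and 42.2% to 47.3%, which overlap. The rule fixed the separation at the members, while their order within a tissue was free. Hypothalamus 2 was the lowest of its tissue at the members and over all tiles (42.2%), and hypothalamus 4 the highest in both (47.3% over all tiles). Hypothalamus 1 was above hypothalamus 3 at the members but below it over all tiles (45.5% and 46.6%). Hippocampus 4 was the highest of its tissue in both. Hippocampus 3 was the lowest at the members, whereas hippocampus 2 was the lowest over all tiles (44.3%).

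**Figure D1:**
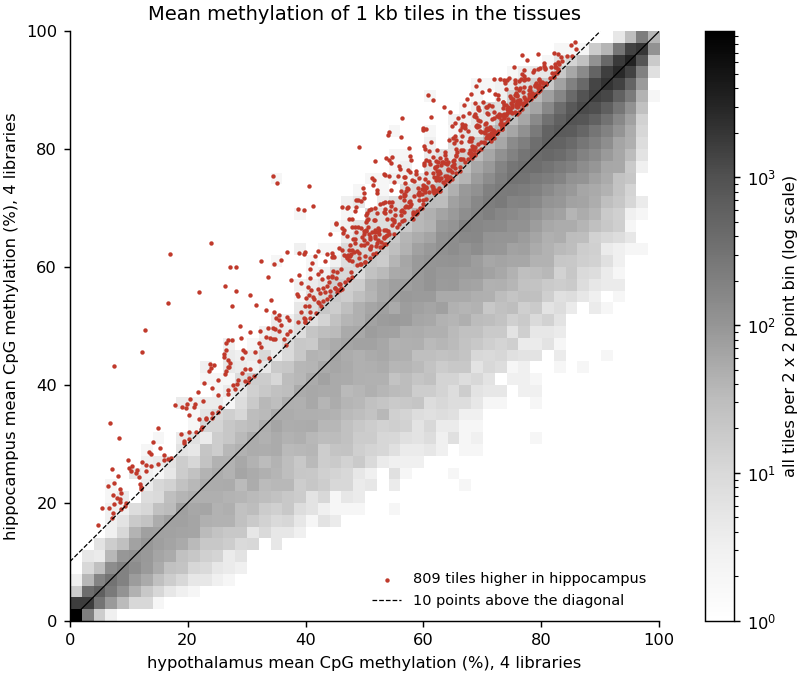
Mean CpG methylation of each 1 kb tile in hypothalamus (x axis, percent, 4 libraries) and hippocampus (y axis, percent, 4 libraries); grey squares count all 95276 tiles on a log scale, red points are the 809 members, the solid line marks equal levels and the dashed line 10 points above it. The members lie above the dashed line, most of them where both means exceed 40%, and the grey area is broader on the hypothalamus side.

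The difference between the tissue means had a median of 13.6 points in the members and ran from 10.01 to 45.2. It was at least 15 points in 297 tiles, at least 20 in 92, at least 30 in 15 and at least 40 in 3. The median SD over 4 libraries was 3.09 points in hippocampus and 4.57 in hypothalamus. The gap between the lowest hippocampus and the highest hypothalamus library had a median of 5.01 points and was under 1 point in 68 members, which hold their place by a small margin. In the tile just inside the limit, chr1:238881001-238882000, the means were 81.4% and 71.4% (10.01 points), and just outside it, at chr4:41456001-41457000, they were 90.1% and 80.1% (9.995 points, no overlap). Without a minimum difference, 3025 tiles (3.17%) had all hippocampus libraries above all hypothalamus libraries and 12325 (12.9%) the reverse.

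Of the 4857 dyads whose calls chose the members, 4767 (98.1%) had the higher mean in hippocampus, and in 740 tiles (91.5%) every dyad did; the rule largely fixes these counts. A further 932 dyads of 262 member tiles had at least 10 calls in 2 or more libraries of each tissue but not in all 8, so the rule had not used them. Of these 83.3% were higher in hippocampus, by a median of 9.20 points. The same kind of dyad was higher in hippocampus in 49.7% of cases over all tiles (182311 dyads, median 0) and in 15.3% in tiles higher in hypothalamus (8098 dyads, median -11.1). These dyads share reads and libraries with those that chose the tiles.

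How a single library relates to tiles chosen without it was also described. Each library was left out in turn, and the rule was applied to the other 7 over the same 95276 tiles, whose dyads have the required depth in all 8. With a hippocampus library left out, 838 to 1004 tiles were chosen, and the left-out library lay above the hypothalamus mean at 96.8% to 98.4% of them, against 31.4% to 55.8% of all tiles. With hypothalamus 1, 2 or 3 left out, it lay below the hippocampus mean at 95.3% to 97.1% of 833 to 1023 tiles, against 45.1% to 54.4% of all tiles. Hypothalamus 4 stood apart: leaving it out gave 1349 tiles, of which 81.8% held in it, against 34.4% of all tiles, with a median difference of 7.17 points against 13.1 points in the other libraries. It is the library with the highest pooled level of its tissue. In each case the left-out library was set against the mean of the other tissue, whose 4 libraries had helped to choose the tiles, so part of each share is fixed by the choice and the share over all tiles is no baseline for it.

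By replicate number, the median difference of the members was 12.5, 14.8, 15.4 and 13.0 points for numbers 1 to 4. Replicates 1 and 4 alone placed 607 members (75.03%) at a difference above 0 in both and at least 10 points on average, a condition met by 1.21% of all tiles. In replicates 2 and 3 the same condition held for 720 members and for 2.48% of all tiles, and 518 members met it in both sets. The rule used the same levels, so these counts describe how the members are made up. In 13 members the mean difference of replicates 1 and 4 was under 5 points, and in 4 members that of replicates 2 and 3.

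The largest difference of all members lay upstream of Neurog2, which encodes neurogenin 2, a transcription factor that starts neuronal differentiation in the developing forebrain. In the tile chr2:251303001-251304000 (5 dyads, 55 to 289 calls) the hippocampus libraries had 61.2%, 70.9%, 49.3% and 67.7%, and the hypothalamus libraries 16.9%, 18.3%, 20.2% and 12.7%. Its means were 62.3% ± 9.53 and 17.04% ± 3.16 (SD, n = 4 each), so the lowest hippocampus library (49.3%) stood far above the highest hypothalamus library (20.2%). The adjoining tile, chr2:251302001-251303000, holds the sequence from chromosome 2 shown above, with 9 dyads and 235 to 881 calls. Its hippocampus libraries had 49.5%, 44.0%, 39.0% and 49.8% and its hypothalamus libraries 14.9%, 7.95%, 9.36% and 17.1%. These tiles end 3.39 and 4.39 kb before the Neurog2 start, on the plus strand.

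At the gene itself both tissues were near 0. The tile with the Neurog2 start (15 dyads) stood at 1.89% ± 1.46 and 0.664% ± 0.562 in hippocampus and hypothalamus (SD, n = 4 each). All 14 measured dyads of the 2 member tiles were higher in hippocampus, by 18.9 to 51.7 points, whereas the other 36 measured dyads within the plotted window had a median difference of 0.610 points. On the far side, a tile at chr2:251313001-251314000 had 40.6% and 29.3%, a difference of 11.3 points, but its libraries overlapped and it was no member.

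Neurog1, the related neurogenin 1, had member tiles after its start. The tile chr17:11316001-11317000 (14 dyads, 237 to 1013 calls) had hippocampus levels of 22.7%, 23.5%, 18.6% and 26.5% and hypothalamus levels of 8.12%, 5.93%, 4.22% and 7.63%. Next to it, chr17:11317001-11318000 (4 dyads) had 25.5% ± 4.07 against 11.4% ± 5.0 (SD, n = 4 each). The tile that holds the start had 2.86% and 3.19%, with 38 dyads. Within the first member tile the 7 dyads nearest the start were under 6% in both tissues, and the difference lay at the dyads from 949 bases onwards.

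Zfhx3, a large zinc finger and homeodomain transcription factor, had 3 member tiles within 5 kb of its start on the minus strand of chromosome 19. The strongest, chr19:51279001-51280000 (8 dyads, 213 to 624 calls), lay 4.61 kb upstream with 73.9%, 74.9%, 59.8% and 69.9% in hippocampus and 33.03%, 35.04%, 39.4% and 51.4% in hypothalamus. Here hypothalamus 4, at 51.4%, was the closest to hippocampus. The tile beside it had 49.1% against 35.6%, and a tile 1.39 kb past the start 69.8% against 55.2%. The start itself was unmethylated in both tissues (1.61% and 0.844%).

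Klb differed at the start itself, as the sequence above shows. The tile chr14:44428001-44429000 (8 dyads, 207 to 745 calls) had 64.2%, 58.7%, 58.6% and 65.8% in hippocampus and 36.5%, 40.7%, 41.5% and 47.9% in hypothalamus. Its neighbour on the gene side had 43.1%, 29.1%, 37.7% and 37.4% against 20.96%, 20.9%, 14.9% and 22.9%, on 7 dyads. In both tiles all libraries of hippocampus were above all of hypothalamus by the rule, and all 15 dyads were higher in hippocampus, by 11.8 to 27.4 points.

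**Figure D2:**
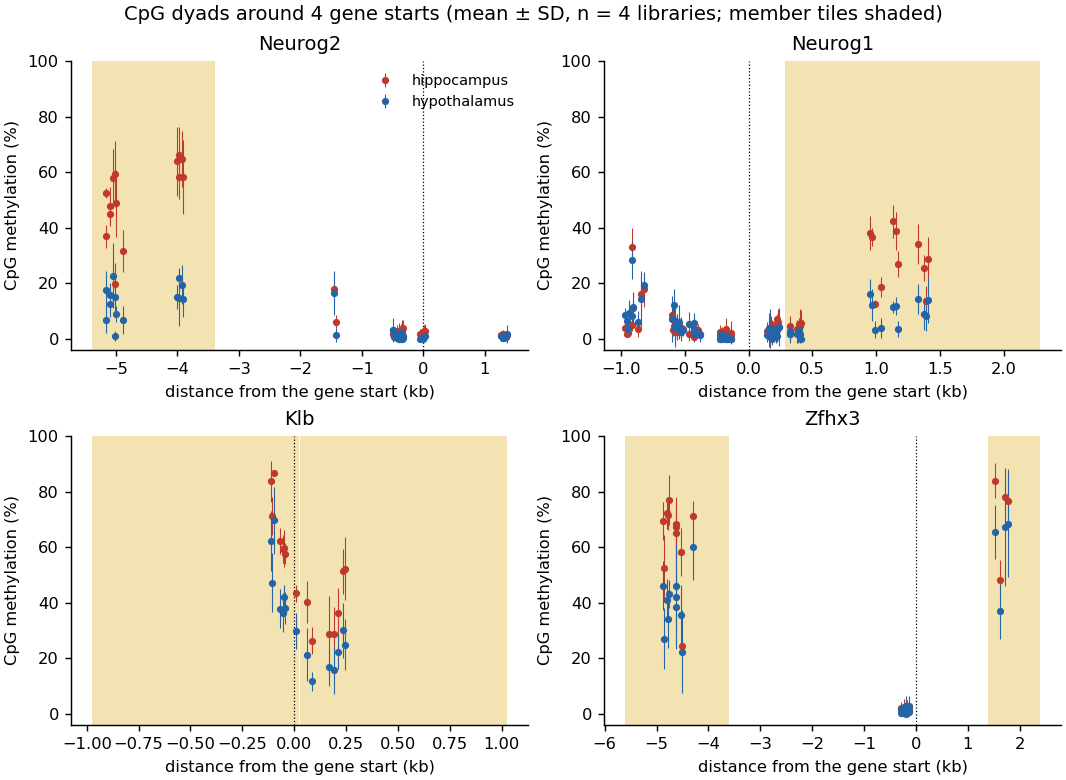
CpG methylation (y axis, percent) of each measured dyad around the placed starts of Neurog2, Neurog1, Klb and Zfhx3, by distance from the start (x axis, kb, positive in the direction of the gene); points are means and bars SDs of 4 libraries, hippocampus red and hypothalamus blue, with member tiles shaded. At Neurog2, Neurog1 and Zfhx3 the start is near 0% in both tissues and the tissues part in the shaded tiles away from it, whereas at Klb they part at the start.

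The other tiles among the 12 with the largest difference lay farther from any placed start. Only some promoters could be placed, so a gene that is not named may be nearer. On chromosome 3, the neighbouring tiles chr3:102317001-102318000 and chr3:102318001-102319000 (the second holds the sequence shown above) differed by 40.2 and 37.2 points, and the nearest placed start, of the Elongator subunit gene Elp4, was 256 kb from the second. That second tile, with 8 dyads and 278 to 1214 calls, had 52.0%, 56.9%, 50.8% and 55.7% in hippocampus and 13.8%, 20.6%, 11.5% and 20.7% in hypothalamus. Also on chromosome 3, chr3:176622001-176623000 combined 17 dyads with a small spread: 48.3%, 51.5%, 45.3% and 52.1% against 13.4%, 11.7%, 13.6% and 12.7% (471 to 1982 calls). It was the deepest of the 12 and differed by 36.5 points (standard error 1.64).

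Depth and spread were poorer in some of the 12. The tile chr20:21889001-21890000 (3 dyads, 55 to 198 calls) had 60.6%, 83.2%, 88.3% and 69.7% in hippocampus and 37.3%, 38.9%, 27.3% and 34.7% in hypothalamus. Its difference of 40.9 points was 29.1 in replicates 1 and 4 and 52.7 in replicates 2 and 3. At chr7:121004001-121005000 (3 dyads, 36 to 313 calls) the widest 95% Wilson interval of a library spanned 29.5 points, against a difference of 39.2. The remaining members of this group were at chr1:250841001-250842000 (43.3% against 7.55%), chr14:77694001-77695000 (55.8% against 21.9%), chr15:45820001-45821000 (73.7% against 40.6%), chr13:93736001-93737000 (59.96% against 27.1%) and chr5:133594001-133595000 (60.05% against 28.3%). In all 12 the lowest hippocampus library exceeded the highest hypothalamus library, as the rule requires.

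**Figure D3:**
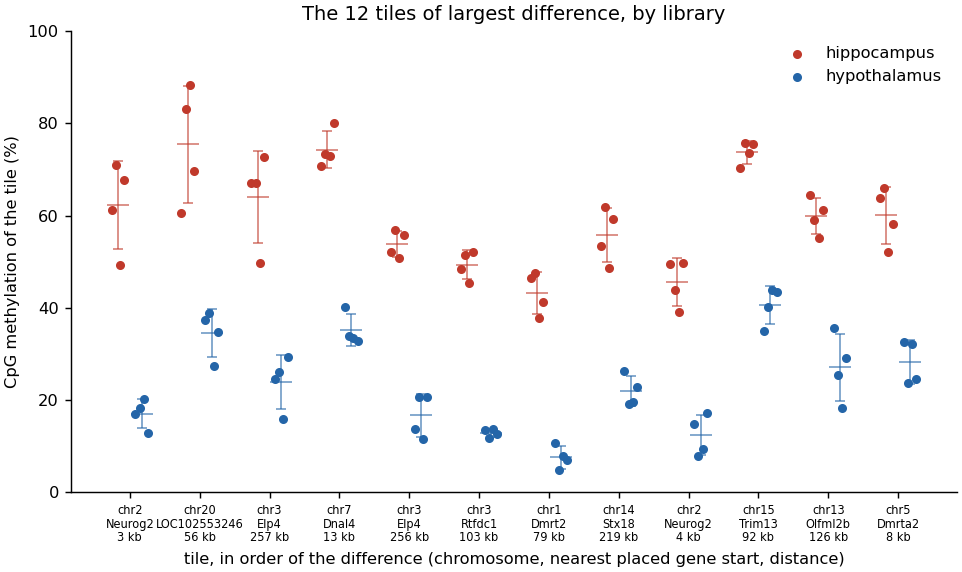
CpG methylation of a tile in each library (y axis, percent) for the 12 members with the largest difference, in that order (x axis, with chromosome, nearest placed gene start and its distance); points are libraries, long bars means and whiskers SDs (n = 4 each), hippocampus red and hypothalamus blue. No tile overlaps between the tissues, and the hippocampus spread is widest in the second tile (SD 12.6).

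The longest run of members was 4 neighbouring tiles, chr5:133592001-133596000, with 32 dyads. The tile nearest a placed start began 5.71 kb from that of Dmrta2, a DM-domain transcription factor of the developing dorsal forebrain. Along the run the means were 19.1%, 33.5%, 60.05% and 58.3% in hippocampus and 5.49%, 6.84%, 28.3% and 33.7% in hypothalamus, so the 2 tiles nearer the gene were lower than the other 2 in both tissues, with hippocampus above in each. The deepest tile of the run, chr5:133592001-133593000 (17 dyads, 530 to 1851 calls), had 20.02%, 17.9%, 19.1% and 19.4% against 5.60%, 4.38%, 5.66% and 6.32%. A run of 3 tiles lay at chr3:48186001-48189000 (29 dyads, differences of 13.4 to 23.5 points), and 3 tiles fell between chr8:98244001 and chr8:98249000 (21 dyads, 12.9 to 17.4 points). In the first tile of this last set hypothalamus 2 stood apart, at 1.61% against 15.2% to 17.5% in the other 3.

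Most members stood alone: 741 had no other member next to them or across a gap of up to 2 kb, 29 runs held 2 tiles, 2 held 3 and 1 held 4. Many had no measured tile there that could have been a member. Both sides together, the 809 members had 253 measured neighbours at 1 kb, 157 at 2 kb and 156 at 3 kb. The measured tiles next to a member leaned the same way. Of 253 measured neighbours at 1 kb, 74.7% were higher in hippocampus, with a median difference of 3.46 points. Among neighbours of any tile at 1 kb the share was 53.9%. Of the 253 neighbours of members, 64 (25.3%) were members themselves, where 0.770% of all neighbouring tiles were. The rule fixed the direction of these 64, so the share and the median are in part set by it. At 2 kb the median was 0.488 points and 6.37% were members. Neighbours of tiles higher in hypothalamus had a median difference of -5.09 points at 1 kb and neighbours of any tile 0.215 points.

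**Figure D4:**
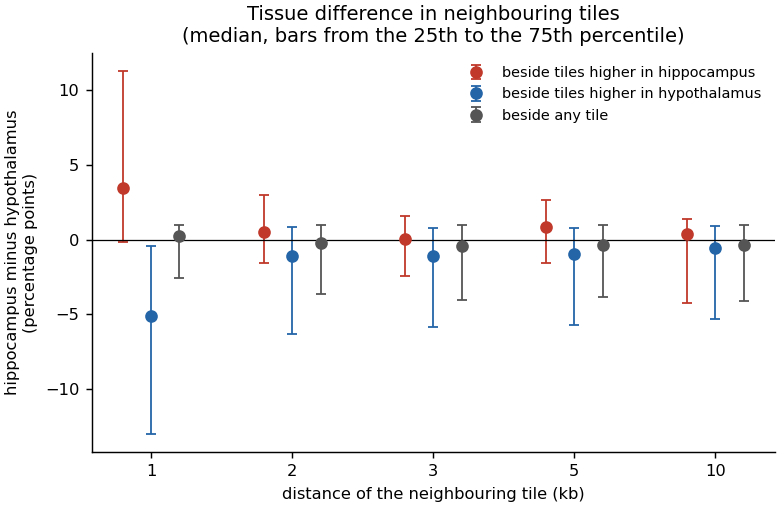
Difference between tissue means (y axis, hippocampus minus hypothalamus, percentage points) in tiles at 1, 2, 3, 5 and 10 kb (x axis) from members (red), from tiles higher in hypothalamus (blue) and from any tile (grey); points are medians and bars run from the 25th to the 75th percentile. The median beside members, which includes neighbours that are members themselves, falls from 3.46 points at 1 kb to 0.488 at 2 kb.

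By position and composition, members were spread over all 20 autosomes, from 0.478% of tiles on chromosome 11 to 1.30% on chromosome 15. They held 6.00 dyads per tile on average, against 7.31 over all tiles and 5.68 in tiles higher in hypothalamus. A count of 20 or more dyads was held by 7 members (0.865%) and by 5224 of all tiles (5.48%). Of these 5224 tiles, 4662 had a mean level under 10%, which leaves little room for a difference of 10 points. Those low tiles also enter the average of 7.31 dyads. The densest member was chr1:228790001-228791000, with 42 dyads and 29.96%, 29.1%, 29.5% and 33.7% in hippocampus against 22.3%, 18.2%, 16.02% and 20.7% in hypothalamus. Its difference of 11.2 points was 7.30 when each dyad counted equally, which is under the limit of the rule. Within 5 kb of an island-like tile (20 or more dyads and a mean under 10%) lay 5.44% of the members, 3.30% of the tiles higher in hypothalamus and 10.7% of all tiles. The count over all tiles includes the 4662 island-like tiles themselves, whose low levels leave little room for a difference of 10 points.

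Promoters of 9103 of 33469 RefSeq entries could be placed at a single position, 98.3% of them on the chromosome that RefSeq gives, and 8744 on chromosomes 1 to 20 were used. A placed gene start lay inside 14 members (1.73%), compared with 5.88% of all tiles and 0.928% of tiles higher in hypothalamus. Within 5 kb of a placed start lay 54 members (6.67%), 14.3% of all tiles and 6.76% of tiles higher in hypothalamus. Near these 54 tiles were 50 genes, 36 of them with a gene name beyond a LOC number. Among these, 5 had more than 1 member tile: Zfhx3 had 3, and Neurog1, Neurog2, Klb and the zinc finger gene Zfp503 had 2 each.

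Named genes with the start inside a member were few, and the levels of these tiles varied. The levels are those of whole 1 kb tiles and need not hold at the start. Of the CpGs in the promoter sequence, 0 of 34 at Nhsl3 and 0 of 7 at Sting1 were measured in all 8 libraries. At Epcip 1 of 8 was, and at Bmal2 2 of 13. At Spag8 the 6 measured promoter CpGs differed by -0.663 to 9.99 points. Bmal2, a paralogue of the circadian clock gene Bmal1, had 58.7%, 69.2%, 70.7% and 68.4% in hippocampus and 54.6%, 41.9%, 49% and 56.9% in hypothalamus (chr4:245261001-245262000, 6 dyads). Its difference was 7.81 points in replicates 1 and 4 and 24.5 in replicates 2 and 3. The Tmem144 tile was low in both tissues, with 17.2%, 24.6%, 22.3% and 21.5% against 5.17%, 3.69%, 10.7% and 9.90% (13 dyads). At Epcip (chr11:34848001-34849000, 13 dyads) the means were 24.4% ± 4.37 and 11.8% ± 1.66, and at Nhsl3 (chr5:151147001-151148000, 4 dyads) 32.0% ± 2.42 and 20.2% ± 7.24 (SD, n = 4 each). Spag8, a sperm-associated gene, had 38.4% against 26.8%, and Galr3 had 39.3% against 28.1%. Cox6a2, a muscle-type subunit of cytochrome c oxidase, had 74.8% against 63.8%, with 5.64 points in replicates 1 and 4 and 16.4 in replicates 2 and 3. At Sting1, an adaptor of innate immune signalling, the difference of 10.7 points split into 16.6 and 4.71. Rps4y2, a ribosomal protein gene copy, had 69.0% against 58.2%. The starts in the remaining 4 tiles were of genes with LOC numbers only, the largest difference at chr10:58307001-58308000 (90.7% against 68.9%).

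Other named genes had a member within 5 kb of the start but not on it, and 3 of them, picked after their values were seen, serve as examples. Sfrp2, a secreted modulator of Wnt signals, had 73.7% against 61.4% in a tile 0.23 kb upstream. In Zfp503, tiles 3.9 and 4.9 kb past the start had 55.1% against 38.6% and 62.8% against 47.3%. Kcnn3, a calcium-activated potassium channel, had 44.6% against 33.8% in a tile 2.92 kb past its start. The 36 named genes near members were not tested for a shared function.

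Few genes of the lists for brain regions and cell types could be measured here. Of 254 listed genes 68 were placed, and 66 had a measured tile within 5 kb. A member lay there for 1 of the 66 (1.52%), and for 50 of all 7203 placed genes with such a tile (0.694%), so a count of 1 does not set the lists apart, nor does a count of 0 in a list of a few genes. The gene was Gabrb2, the beta 2 subunit of the GABA-A receptor. Its tile at chr10:27816001-27817000, 1.09 kb upstream of the start (10 dyads, 212 to 642 calls), had 20.3%, 19.8%, 21.5% and 20.7% in hippocampus and 5.80%, 6.54%, 11.3% and 10.4% in hypothalamus. No member was seen near the 11 hypothalamic transcription factors, 8 forebrain and hippocampal transcription factors, 9 hypothalamic neuropeptide and receptor genes, 6 Hox genes, 12 DNA methylation genes, 3 astrocyte or 4 oligodendrocyte markers that had such a tile. The 13 microglial and vascular markers were not placed. The lists do not hold Neurog1, Neurog2, Zfhx3 or the galanin receptor gene Galr3, whose start lay in a member. Tiles higher in hypothalamus lay within 5 kb of 5 of the 66 genes (7.58%, against 6.87% of all placed genes with a tile): Mbd3, Id2, Neurod2, Gabrd and Six6. The share of cell types in the dissected tissue was not tested.

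The rule used CpG only, and methylation outside CpG in the same tiles was compared between the tissues. Cytosines were grouped as CHG (H is A, C or T) and as CHH followed by A, T or C, and only positions listed in all 8 libraries were summed. CHH cytosines followed by C are rarely methylated in mammals and served as the measure of unconverted calls. Each of 12 values was compared by a two-sided exact permutation test over the 70 assignments of 4 and 4 libraries (smallest possible p 0.0286), with Benjamini-Hochberg adjustment over the 12. Non-CG and CpG calls share reads. The tiles had been chosen with the true tissue labels and were kept for all 70 assignments. The true assignment may thus be favoured, and the p-values do not stand apart from the choice of tiles.

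At 7770 CHH cytosines followed by A in the members, hippocampus 1 to 4 had levels of 2.96%, 2.49%, 5.22% and 5.56%, and hypothalamus 1 to 4 had 3.06%, 1.77%, 2.17% and 3.23%. The libraries overlapped, and the difference of 1.5 points did not pass the test (exact permutation p = 0.171, adjusted p = 0.229). Hippocampus 3 and 4, the 2 highest, also had the most unconverted calls, with 1.80% and 1.91% at CHH cytosines followed by C against 0.309% to 0.992% in the other 6 libraries. To set a library's overall level aside, the members were then compared with all other tiles of the same library.

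Measured in that way, the excess of CHH methylation before A in the members was larger in hippocampus than in hypothalamus. Members minus all other tiles was 0.910, 0.777, 0.715 and 0.760 points in hippocampus 1 to 4, above 0 in 4 of 4 libraries. In hypothalamus 1 to 4 it was -0.000834, 0.0342, -0.0539 and 0.122 points, above 0 in 2 of 4. The tissues did not overlap, with means of 0.790 ± 0.0839 and 0.0254 ± 0.0740 points (SD, n = 4 each), and differed by 0.765 points (exact permutation p = 0.0286, adjusted p = 0.0429). This test treats the 8 libraries as independent, although those numbered 1 and those numbered 4 agreed as above. With same-numbered replicates as a block, no non-CG value passed: the exact sign-flip permutation p for these 0.765 points was 0.125, the smallest that 4 pairs allow (adjusted p = 0.188). Set against the tiles higher in hypothalamus, the value was 0.728 to 1.04 points in hippocampus and -0.693 to -0.490 in hypothalamus, a difference of 1.49 points (exact permutation p = 0.0286, adjusted p = 0.0429).

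The other contexts went the same way on a smaller scale. Members minus all other tiles differed between the tissues by 0.313 points at CHH followed by T, 0.285 at CHG and 0.0685 at CHH followed by C (exact permutation p = 0.0286 and adjusted p = 0.0429 for each). The last of these is the measure of unconverted calls, and it too separated the tissues at the smallest possible p. Comparison with other tiles thus did not make this measure equal between the tissues. The share of unconverted calls in the other values was not tested. With the CHH-before-C value of the same library subtracted, the difference before A was 0.697 points (exact permutation p = 0.0286, adjusted p = 0.0429). It was 0.853 points within the 4 libraries with fewer unconverted calls (hippocampus 1 and 2, hypothalamus 2 and 3), 0.677 within the other 4, and 0.756 in replicates 2 and 3; with 2 against 2 libraries the exact permutation test cannot go below 0.333. Without hippocampus 3, or without hippocampus 4, the difference before A was 0.790 and 0.775 points and the adjusted p rose to 0.0571 (exact permutation).

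**Figure D5:**
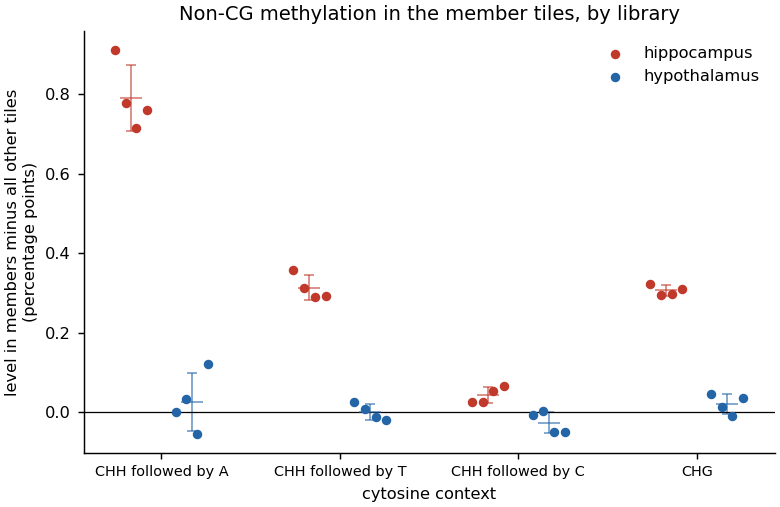
Non-CG methylation of the members minus that of all other tiles of the same library (y axis, percentage points) by cytosine context (x axis); points are libraries, long bars means and whiskers SDs (n = 4 each), hippocampus red and hypothalamus blue, and the line marks 0. Before A the hippocampus libraries lie between 0.715 and 0.910 and the hypothalamus libraries between -0.0539 and 0.122.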

How the data were processed

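The authors deposited, for each of 8 RRBS libraries, the counts of methylated calls and of all calls at every listed cytosine of either strand, and a fraction that is their ratio. Every listed position had at least 10 calls. Per the labels' protocols, DNA was cut with MspI, fragments of 150 to 300 bases were selected and bisulfite-treated. The submitters' processing notes name Bowtie and the build rn5, with no version. For the methylation caller, trimming and duplicate reads, nothing is stated in those notes. The levels were recomputed here from the counts; the deposited fraction was not used.

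Calls of both strands of a CpG were summed where both were listed, and 1 kb tiles were formed as described in the report. The libraries were grouped as 4 of hippocampus and 4 of hypothalamus from the labels. The member tiles, the gene lists and the comparisons were chosen with earlier results of these data known. Tiles named in the text were the 12 of largest difference, the 5 with the most dyads, the 5 with the lowest hypothalamus mean and the 5 of smallest spread (both at 20 points or more), the 5 of largest hippocampus SD, the 3 longest runs and the 3 on either side of the limit. Named genes were those with a placed start in a member (10 by difference) and list genes within 5 kb; Neurog2, Dmrta2, Elp4 and Edn2 came with named tiles. Neurog1, Zfhx3 and Zfp503 (more than 1 member tile), Sfrp2, Kcnn3 and Prrx1 were added after their values were seen.

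RefSeq promoters (300 bases) were placed by matching their cytosines, strand and CpG context included, to the listed positions in windows of 36 bases with at least 7 cytosines, and kept at 95% agreement over at least 15 cytosines. Placement and tile selection were also run on simulated data. Simulated promoters had almost every cytosine listed and no mismatch, and simulated libraries were independent. Those runs therefore do not give the error rate in the real data. Only non-CG levels were tested, by exact permutation with Benjamini-Hochberg adjustment and a threshold of 0.05. Wilson intervals are at 95%. Software was Python 3.11.15 with numpy 2.4.6, pandas 2.3.3, scipy 1.17.1 and matplotlib 3.10.9. Alternatives covered the call minimum, difference, dyad number, tile size, strand, weighting, single libraries and a replicate block. Same-numbered libraries were checked for pairing: over the tiles the correlation of their deviations from the tissue means was 0.167, 0.0675, 0.0886 and 0.170 for numbers 1 to 4, so numbers 2 and 3 were under 0.1 and the libraries were analysed as unpaired. Libraries of 1 animal would show the class agreement seen for numbers 1 and 4 (98.8% and 98.2%), so the unpaired test may treat related libraries as independent. Numbers 2 and 3 did not agree in this way (39.1% and 24.7%). The replicate block, given beside the result of the unpaired test, pairs all 4 numbers, so it may also match unrelated libraries.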

Additional observations from a re-analysis of the deposited data

Results flagged for a closer look

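The 4 libraries of each tissue were compared in 40 named tiles, 39 other members within 5 kb of a named gene, 12 non-CG values and the pooled CpG level. A library was picked out where its gap to the nearest other library, as a share of the range of the 4, exceeded Dixon's 95% critical value for 4 samples. Of 184 groups, 8 met this, where chance gives about 1 in 20 (9.2 groups) among unselected groups; some of these tiles were chosen for a small or large SD, and tiles share libraries, so that rate need not hold. Hypothalamus 1 was high, at 40.3%, in the tile at 121004001 on chromosome 7 (other 3 libraries 32.9% to 33.9%), and low, at 50.4%, in the Rps4y2 tile at 246879001 on chromosome 4 (60.1% to 61.8%). Hypothalamus 2 was low in 2 tiles, with 1.61% at 98244001 on chromosome 8 (15.2% to 17.5%) and 29.1% in the Kcnn3 tile at 208270001 on chromosome 2 (34.8% to 35.99%). Hypothalamus 3 had 23.02% in the Spag8 tile at 63674001 on chromosome 5 (27.8% to 28.6%). In hippocampus, library 2 had 91.3% at 57417001 on chromosome 2 (88.2% to 88.6%). Hippocampus 3 had 43.8% at 270205001 on chromosome 2 (66.4% to 70.3%) and 59.9% in the Prrx1 tile at 86104001 on chromosome 13 (66.1% to 66.3%). In all 8 tiles the tissues stayed apart, as the rule requires.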

How the results depend on the processing

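The number of members depended on each threshold of the rule. Against 809 tiles, 457 were kept at 20 calls per dyad (411 of them among the 809), 297 at 15 points, 92 at 20 points, 443 with 5 dyads per tile and 480 from forward-strand calls (341 among the 809). Without 1 library, with depth required only in the 7 that were kept, so that more tiles qualify than in the left-out comparison of the report, the count was 834 to 1533; the highest came without hypothalamus 4 and held 755 of the 809. Subsets of 4 libraries, chosen after seeing the data, gave 2282 tiles (replicates 2 and 3), 2608 (the 4 libraries lowest in unconverted calls) and 1147 (the 4 highest). In all, 12 alternatives gave counts within 1.5 times the main one, among them 1147 and the 1043 with the replicate block.

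Non-CG differences kept their direction in all 162 alternatives, and 30 of these, all of members set against other tiles, no longer passed the threshold. With the replicate block the value is the same and the sign-flip test of 4 pairs cannot go below 0.125 (adjusted p 0.188, exact permutation): against tiles higher in hypothalamus and all other tiles, 1.49 and 0.765 points before A, 0.573 and 0.313 before T, 0.0891 and 0.0685 before C, and 0.530 and 0.285 at CHG. In the same order, the 4 libraries with fewer unconverted calls gave 1.58 and 0.853 points before A, the 4 with more 1.41 and 0.677, and replicates 2 and 3 gave 1.42 and 0.756. Without 1 library the differences against tiles higher in hypothalamus were 1.44 to 1.55 before A, 0.548 to 0.593 before T, 0.0752 to 0.102 before C and 0.514 to 0.548 at CHG; against all other tiles 0.725 to 0.797, 0.298 to 0.322, 0.0606 to 0.0778 and 0.275 to 0.293. Of these left-out libraries, hippocampus 3 and hippocampus 4 were the only ones without which any of the 8 values missed the threshold, and then all 8 did (adjusted p 0.0571 or 0.0857, exact permutation). The levels in the members themselves passed in no alternative and ranged without 1 library over 0.999 to 2.02, 0.306 to 0.930, 0.195 to 0.712 and 0.527 to 1.30 points.

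Of 465 alternatives for named tiles, 10 moved the difference by more than the spread between libraries and none changed its sign. The tile at 220752001 on chromosome 2 had 13.0 points in replicates 1 and 4 and 38.9 in replicates 2 and 3. With dyads weighted equally, chr1:228790001 and the Edn2 tile at chr5:142888001 fell to 7.30 and 8.47 points, and chr10:107901001 fell to 4.79 at 20 calls. The cause was not tested. Every sample correlated best with its own replicate number, a hint from the data and not from the design. The class agreement of genotype-like dyads held for numbers 1 and 4 (98.8% and 98.2%) and not for numbers 2 and 3 (39.1% and 24.7%). Hypothalamus 3 and 4 had the fewest calls per member tile (median 121 and 170).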

Other observations

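Chromosome X lay outside the rule. Of its 1355 tiles with enough depth, 8 (0.59%) met the same condition for hippocampus and 41 (3.03%) the condition turned round, where the autosomes had 0.849% and 7.69%.

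Among members with very even libraries, chr19:57612001-57613000 had 75.4% ± 0.680 in hippocampus against 54.2% ± 3.25 in hypothalamus (SD over 4 libraries of each), on 64 to 452 calls. At chr14:77689001-77690000, which starts 5 kb before the named tile chr14:77694001-77695000, 18 dyads had 32.2%, 28.4%, 28.7% and 34.6% against 10.2%, 6.32%, 8.61% and 8.27%, on 720 to 2454 calls.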
